A study of Mus musculus with 6 samples.

Results

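The 8 mature miRNA arms described here come from 3 families that are expressed from introns of genes active in neurons, miR-128, miR-153 and miR-218. They were chosen by name, with the sex difference of these same libraries already known, so the values of that contrast are given below as a description. Where an arm passed the threshold of the fit across all miRNAs this is stated, but it is not independent evidence of a difference. All 8 names are among the 1915 mature miRNAs counted in the series, 7 had at least 10 reads summed over the libraries and entered the fit, and miR-218-2-3p had 0 reads in every library. The study sequenced small RNA from whole brain of wild-type C57BL/6 mouse embryos at E15.5 to ask how miRNA levels differ between the sexes. There were 3 female libraries (F1 to F3) and 3 male libraries (M1 to M3), the groups differed in sex alone by their labels, and each library pooled the RNA of 2 to 3 embryos of one sex, told apart by whether the gonads had testicular cords. All cells of the brain were sequenced together, so fewer cells of a type and less RNA per cell cannot be told apart in any value below.

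A miRNA hairpin is cut into a 5p arm and a 3p arm. The guide is the arm loaded into the silencing complex, where it pairs with target mRNAs through its seed, bases 2 to 8, and the other arm, the passenger, is mostly degraded. miR-128 is enriched in neurons and is known to restrain neuronal excitability. miR-153 is known for targeting mRNAs of synaptic vesicle proteins and alpha-synuclein, and its host gene encodes a protein of dense-core vesicles. miR-218 lies in the genes of the axon guidance ligands Slit2 and Slit3, and is known for its high level in motor neurons.

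The sequences show which arms tell the loci apart. The mature sequences below are from RefSeq (GRCm38.p6), in which all 8 names were found, and capitals mark the seed.
mmu-miR-128-3p: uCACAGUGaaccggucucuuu
mmu-miR-128-1-5p: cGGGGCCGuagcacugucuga
mmu-miR-128-2-5p: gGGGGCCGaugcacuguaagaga
mmu-miR-153-3p: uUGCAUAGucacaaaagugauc
mmu-miR-153-5p: gUCAUUUUugugacguugcagcu
mmu-miR-218-5p: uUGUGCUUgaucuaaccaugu
mmu-miR-218-1-3p: aAACAUGGuuccgucaagcacc
mmu-miR-218-2-3p: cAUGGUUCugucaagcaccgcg

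The 2 guide arms miR-128-3p and miR-218-5p are each made by a pair of hairpins with the same mature sequence, so their reads cannot be given to a locus. The passenger arms of miR-128 share the seed GGGGCCG and match at 16 of 21 positions, and the substitutions from miR-128-1-5p to miR-128-2-5p, counted from the 5′ end of the former, are C1G, U9A, A10U, C18A and U19A. Aligned with a shift of 3 bases, miR-218-1-3p and miR-218-2-3p match at 18 of 19 overlapping positions and differ by C12U, counted from the 5′ end of miR-218-1-3p. The arms are 21 to 23 bases long, so a read stands for nearly the same length in each of them.

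By matching these sequences to mm9, the build the authors used, each of the 5 hairpins was placed inside an intron of its host gene, on the host's strand and clear of every annotated host exon (GENCODE vM1). Mir128-1 lies at chr1:130098938-130099007 on the plus strand, in intron 19 of R3hdm1, a gene for a protein with an R3H domain. Mir128-2 lies at chr9:112021140-112021215 on the minus strand, in intron 19 of Arpp21, which encodes a cAMP-regulated phosphoprotein. Mir153 lies at chr12:118489290-118489358 on the plus strand, in intron 19 of Ptprn2. Mir218-1 lies at chr5:48615181-48615290 in intron 16 of Slit2 and Mir218-2 at chr11:35430318-35430427 in intron 14 of Slit3, both on the plus strand. Introns are numbered in the annotated transcript with the most exons that spans the hairpin. The hairpins of miR-218 and miR-153, on which the arm comparisons below turn, are shown with both mature arms in capitals.
Mir218-1: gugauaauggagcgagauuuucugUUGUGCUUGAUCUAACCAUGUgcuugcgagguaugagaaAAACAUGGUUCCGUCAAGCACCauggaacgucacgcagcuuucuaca
Mir218-2: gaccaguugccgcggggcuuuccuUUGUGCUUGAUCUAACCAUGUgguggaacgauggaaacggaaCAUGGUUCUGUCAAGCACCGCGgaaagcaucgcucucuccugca
Mir153: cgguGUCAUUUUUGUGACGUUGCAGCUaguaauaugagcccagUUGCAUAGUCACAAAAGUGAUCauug

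Levels are given as CPM, a miRNA's reads over the library's total reads on miRNAs, scaled to the same total in every library. Below, female-biased and male-biased mean an adjusted p below 0.05 in the edgeR fit described further on. The totals ran from 14802675 reads in F1 to 59362011 in F2. Library F2 stood apart, with 660 miRNAs detected against 790 to 915 in the other 5 libraries. For the arms, values without it are given where they change the reading. The lists of marker miRNAs are given with it only. Many markers of other tissues moved with sex in these libraries. The 4 skeletal muscle miRNAs on the list summed to between 388 and 1180 CPM in females and between 5497 and 6139 CPM in males, and all 4 were male-biased. The 6 epithelial miRNAs summed to between 429 and 1133 CPM in females and between 7990 and 8284 CPM in males, with 5 male-biased. The 4 mesenchymal miRNAs summed to between 4459 and 12440 CPM in females and between 19180 and 22960 CPM in males, with 4 male-biased. The 4 red blood cell miRNAs summed to between 673 and 1367 CPM in females and between 1605 and 1984 CPM in males, with 1 male-biased. miR-486a-5p, the male-biased member, made most of this sum, with means of 893 CPM in females and 1744 CPM in males. The others were not past the threshold. Their log2 fold changes were 0.18 (standard error 0.41) for miR-451a, -0.97 (1.13) for miR-144-3p and -0.74 (0.52) for miR-144-5p. The 4 vessel miRNAs summed to between 7714 and 14680 CPM in females and between 6031 and 8155 CPM in males, with 2 female-biased. The median log2 fold changes of these lists were 2.91 (muscle), 2.63 (epithelium), 1.55 (mesenchyme), -0.28 (red blood cells) and -0.75 (vessels), against -0.02 over all miRNAs tested. None of these markers was at 0 in all libraries, and their part in the values below was not tested.

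The 3 guide arms were present in every library at very different levels. miR-128-3p and miR-218-5p held ranks 29 and 36 of all miRNAs by mean CPM, and miR-153-3p held rank 306. The passenger arms lay far lower, with miR-128-1-5p and miR-128-2-5p between 12.0 and 36.2 CPM, miR-218-1-3p between 0.724 and 8.08 CPM, and miR-153-5p at or below 0.677 CPM.

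**Figure D1:**
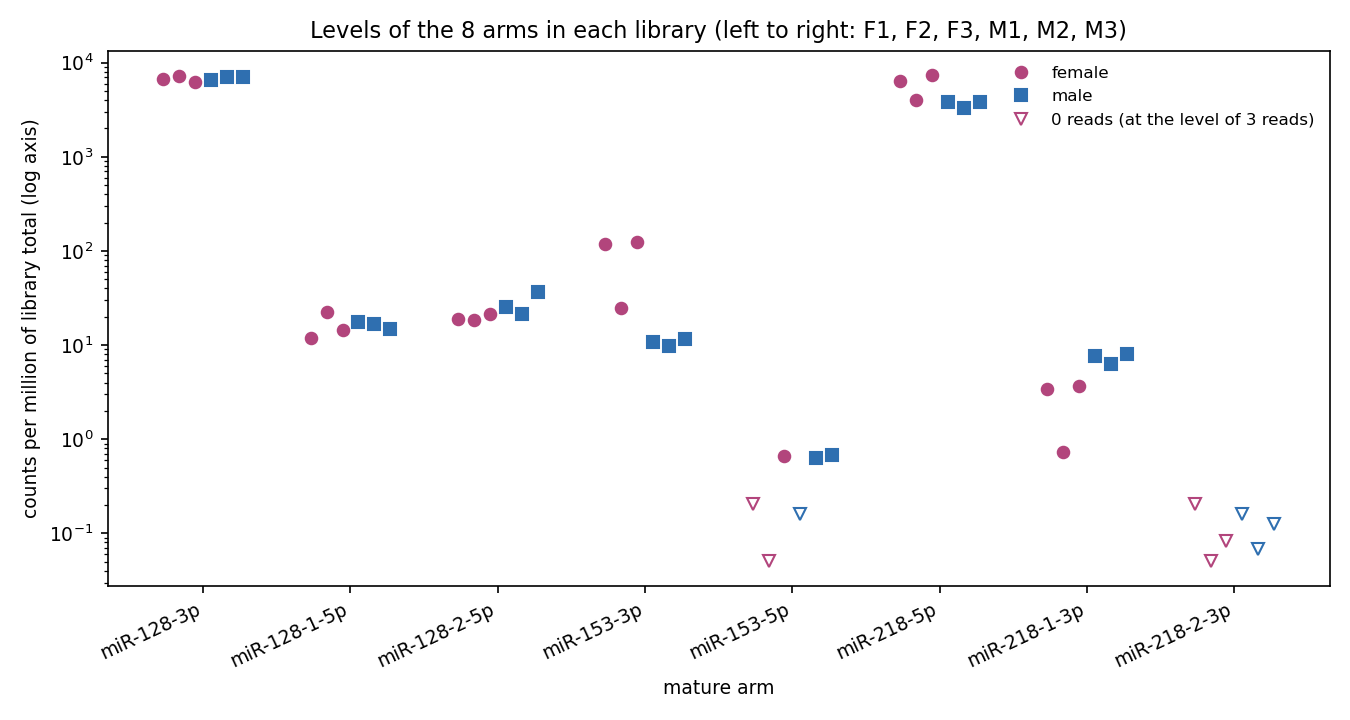
Level of each arm in each library, in CPM of the library total on a log axis (circles, female; squares, male; from left to right in each arm, F1 to F3 and M1 to M3; open triangles, 0 reads, drawn at the level of 3 reads). miR-128-3p lies between 6238 and 7144 CPM in all libraries, whereas miR-153-3p lies at 24.5 CPM or above in females and at 11.7 CPM or below in males, and miR-218-2-3p has no read.

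mmu-miR-128-3p was nearly level across the libraries. Its levels were 6783 (F1), 7144 (F2) and 6238 CPM (F3) in females and 6481 (M1), 7094 (M2) and 7047 CPM (M3) in males. The groups overlapped, with the lowest and the second lowest values in a female and a male library. Female libraries averaged 6722 ± 456 CPM (SD, n = 3) and male libraries 6874 ± 341 CPM (SD, n = 3). On this scale its coefficient of variation over the 6 libraries was 5.44%, rank 1 from the lowest among the 553 miRNAs that averaged 100 reads or more, whose median was 33.1%. That rank moved to between 1 and 5 with a library left out in turn, and to 24 with TMM scaling, which corrects library totals for their composition and gave 12.2%. The edgeR log2 fold change, male over female, was -0.09 (standard error 0.22), and 0.03 with library totals, so that its sign depended on the scaling.

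Reads of the passenger arms were used to tell the miR-128 loci apart. mmu-miR-128-1-5p, from the R3hdm1 intron, stood at 12.0 (F1), 22.6 (F2) and 14.6 CPM (F3) in females and 17.8 (M1), 16.7 (M2) and 14.8 CPM (M3) in males. Its highest and lowest values were both in female libraries. mmu-miR-128-2-5p, from the Arpp21 intron, reached 18.9 (F1), 18.3 (F2) and 21.4 CPM (F3) in females and 25.4 (M1), 21.1 (M2) and 36.2 CPM (M3) in males. The groups overlapped here too, by F3 and M2. Log2 fold changes were -0.15 (standard error 0.48) for miR-128-1-5p and 0.37 (standard error 0.39) for miR-128-2-5p. Without F2, that of miR-128-1-5p was 0.23 (standard error 0.39), so its sign turned with that library.

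As a share of the passenger reads of both loci, miR-128-1-5p took 38.9% (F1), 55.3% (F2) and 40.5% (F3) in females and 41.1% (M1), 44.1% (M2) and 29.0% (M3) in males. The Arpp21 locus thus gave the larger part of the passenger reads in 5 of 6 libraries, with F2 the exception. The share of each locus in the guide, miR-128-3p, cannot be told from these reads. The exact 95% intervals were 53.3 to 57.3% in F2 and 26.4 to 31.6% in M3, and neither overlapped the interval of any other library. Intervals and limits here and below cover counting error of independent reads only. Reads can be copies of one molecule, so the intervals can be too narrow and do not settle whether these libraries differed. Female libraries averaged 44.9% ± 9.04 (SD, n = 3) and male libraries 38.1% ± 8.03 (SD, n = 3), a difference within the spread between libraries, and the female mean was 39.7% without F2. There were 220 (F1), 175 (F2) and 174 (F3) reads of miR-128-3p per passenger read in females and 150 (M1), 188 (M2) and 138 (M3) in males. These ratios overlapped between the sexes.

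mmu-miR-153-3p had the largest spread of the family guides. Its levels were 119 (F1), 24.5 (F2) and 126 CPM (F3) in females and 10.9 (M1), 9.72 (M2) and 11.7 CPM (M3) in males. The groups did not overlap, but F2 lay nearer to the male libraries than to the other female ones on the log scale, in counts 1455 reads against 1761 and 4494. Female libraries averaged 89.7 ± 56.5 CPM (SD, n = 3) and male libraries 10.8 ± 0.983 CPM (SD, n = 3), 8.34-fold higher in females, or 11.4-fold without F2. The log2 fold change was -3.15 (standard error 0.43).

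The other arm of this hairpin, mmu-miR-153-5p, had 0 (F1), 0 (F2) and 24 reads (F3) in females and 0 (M1), 28 (M2) and 16 reads (M3) in males. In CPM the 3 libraries with reads were close, at 0.670 in F3 and 0.638 and 0.677 in M2 and M3. If reads are independent, a count of 0 allows up to 0.203 CPM in F1, 0.0505 CPM in F2 and 0.161 CPM in M1, on a limit of 3 reads. F2 had the most reads and the fewest miRNAs detected, so its limit can be too low. With a library of each sex among those with reads and libraries of each sex among those without, no direction between the sexes can be read. As a share of the reads of both arms, miR-153-5p was 0.531% (exact 95% interval 0.341 to 0.789%) in F3, against 6.15% (4.13 to 8.77%) and 5.48% (3.16 to 8.75%) in M2 and M3. Where it had no read, the limit was 0.170% in F1, 0.206% in F2 and 1.48% in M1. On that limit, which takes reads as independent, the share in M1 lay below the intervals of the other male libraries.

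mmu-miR-218-5p had levels of 6454 (F1), 3990 (F2) and 7382 CPM (F3) in females and 3804 (M1), 3284 (M2) and 3859 CPM (M3) in males. The groups did not overlap, and F2 lay closest to the males. Female libraries averaged 5942 ± 1753 CPM (SD, n = 3) and male libraries 3649 ± 317 CPM (SD, n = 3), 1.63-fold higher in females, or 1.90-fold without F2. The log2 fold change was -0.82 (standard error 0.22). Beside miR-128-3p in the same library, miR-218-5p was the more abundant of the pair in F3 alone, where there were 0.845 reads of miR-128-3p per read of miR-218-5p. In the others this ratio was 1.05 and 1.79 in F1 and F2 and 1.70, 2.16 and 1.83 in M1, M2 and M3, so that neither sex lay wholly above the other.

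The passenger arm of the Slit2 locus had the opposite order. mmu-miR-218-1-3p had levels of 3.38 (F1), 0.724 (F2) and 3.71 CPM (F3) in females and 7.60 (M1), 6.31 (M2) and 8.08 CPM (M3) in males. Every male library lay above every female library, while for the guide of the same hairpin every female library lay above every male library. The counts behind it were 50, 43 and 133 reads in females and 142, 277 and 191 reads in males. Female libraries averaged 2.61 ± 1.64 CPM (SD, n = 3) and male libraries 7.33 ± 0.918 CPM (SD, n = 3), 2.81-fold higher in males, or 2.07-fold without F2. The log2 fold change was 1.40 (standard error 0.99). Opposite signs of the arms were not particular to this hairpin. For example, miR-379-5p had -0.58 and miR-379-3p 0.64, neither past the threshold. How many hairpins had such arms was not counted.

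The ratio of both arms does not depend on a scaling that is common to all miRNAs of a library. The arms differ in GC content, however, and the ratio was not corrected for it. There were 1910 (F1), 5510 (F2) and 1990 (F3) reads of miR-218-5p per passenger read in females and 501 (M1), 521 (M2) and 477 (M3) in males. The male libraries were close to each other, and the lowest female ratio lay above the highest male one. That lack of overlap follows from the opposite orders of both arms given above and adds nothing to them. Arm ratios were not computed outside the families described here, so the share of hairpins without overlap is not known. On the log2 scale, with 0.5 added to each count, female libraries averaged 11.42 ± 0.86 (SD, n = 3) and male libraries 8.96 ± 0.06 (SD, n = 3), and the female mean was 10.92 without F2. No read of the Slit3 passenger arm, mmu-miR-218-2-3p, was counted, so all 836 passenger reads were given to the Slit2 locus. With a limit of 3 reads, and if every read was given to the right arm, the Slit3 arm took at most 0.359% of them over all libraries. The arms are nearly alike where they overlap, and the assignment of reads was not checked. The guide of both loci is the same, so how many guide reads came from each cannot be told apart.

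**Figure D2:**
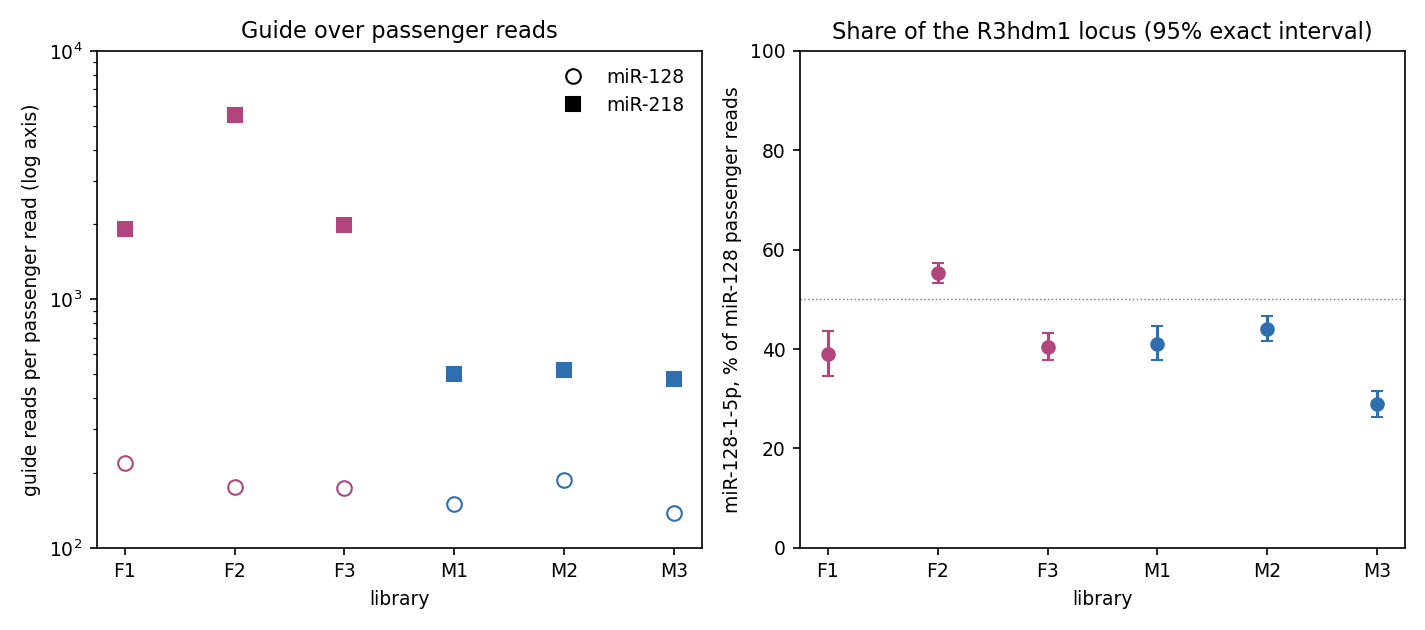
Left, reads of the guide arm per passenger read in each library on a log axis for miR-128 (open circles) and miR-218 (filled squares), with female libraries (F1 to F3) in magenta and male libraries (M1 to M3) in blue. Right, miR-128-1-5p as a percentage of the passenger reads of both miR-128 loci, with exact 95% binomial intervals and a dotted line at equal shares. miR-218 ratios are 1910 or more in females and 521 or less in males, miR-128 ratios overlap between 138 and 220, and the share of the R3hdm1 locus is above the line in F2 alone.

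For the sex comparison across all miRNAs, the 1120 miRNAs with at least 10 reads in sum were fitted with edgeR's quasi-likelihood test and Benjamini-Hochberg adjustment. Of the 7 arms tested, 2 were female-biased with an adjusted p below 0.05, miR-153-3p and miR-218-5p, where 5.27% of all miRNAs tested were female-biased. None of the 7 was male-biased, where the share of all miRNAs was 3.21%. With library totals in place of TMM scaling, the split over all miRNAs moved from 36 male-biased and 59 female-biased to 50 and 39. In CPM, every female library lay above every male library for 2 of the 7, as for 8.57% of all miRNAs, and the reverse held for 1, miR-218-1-3p, as for 15.4%. Since the arms were chosen with this contrast known, nothing is read from these counts. The median log2 fold change was -0.09 over the 7 arms and -0.02 over the 1120 miRNAs. miR-153-3p had the lowest log2 fold change of the 95 miRNAs past the threshold, and 52 of the 95 lay below miR-218-5p. The call of miR-218-5p was lost with library totals, where its log2 fold change was -0.70 (standard error 0.22). It was also lost without F1 (-0.74), F3 (-0.65), M1 (-0.79) or M2 (-0.80).

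Base composition moved with the sex difference over all miRNAs. Among 474 miRNAs averaging 100 reads or more per library and with a sequence in the table used, the median log2 fold change was -0.82 for the 84 with a GC content under 40%. It was -0.24 for the 160 from 40% to under 50%, 0.16 for the 151 from 50% to under 60%, and 0.21 for the 79 at 60% or above. The 2 guides with a call are GC-poor, with 36.4% for miR-153-3p and 38.1% for miR-218-5p. miR-128-3p has 47.6%, miR-218-1-3p 50%, miR-128-2-5p 60.9% and miR-128-1-5p 66.7%. The log2 fold change of miR-218-5p thus equalled the median of the miRNAs under 40% GC, whereas that of miR-153-3p lay below it. When the fit corrected every library for GC content, miR-218-5p had -0.31 (standard error 0.21) and lost its call, miR-153-3p had -2.47 (standard error 0.36) and kept it, and miR-218-1-3p had 1.19 (standard error 0.98). The arms of miR-218 thus kept opposite signs with this correction, and both fold changes were smaller in size than without it (-0.82 and 1.40). The arm ratio of miR-218 was not computed with this correction, so the part of base composition in that ratio was not tested. Why composition differs between the libraries was not tested.

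**Figure D3:**
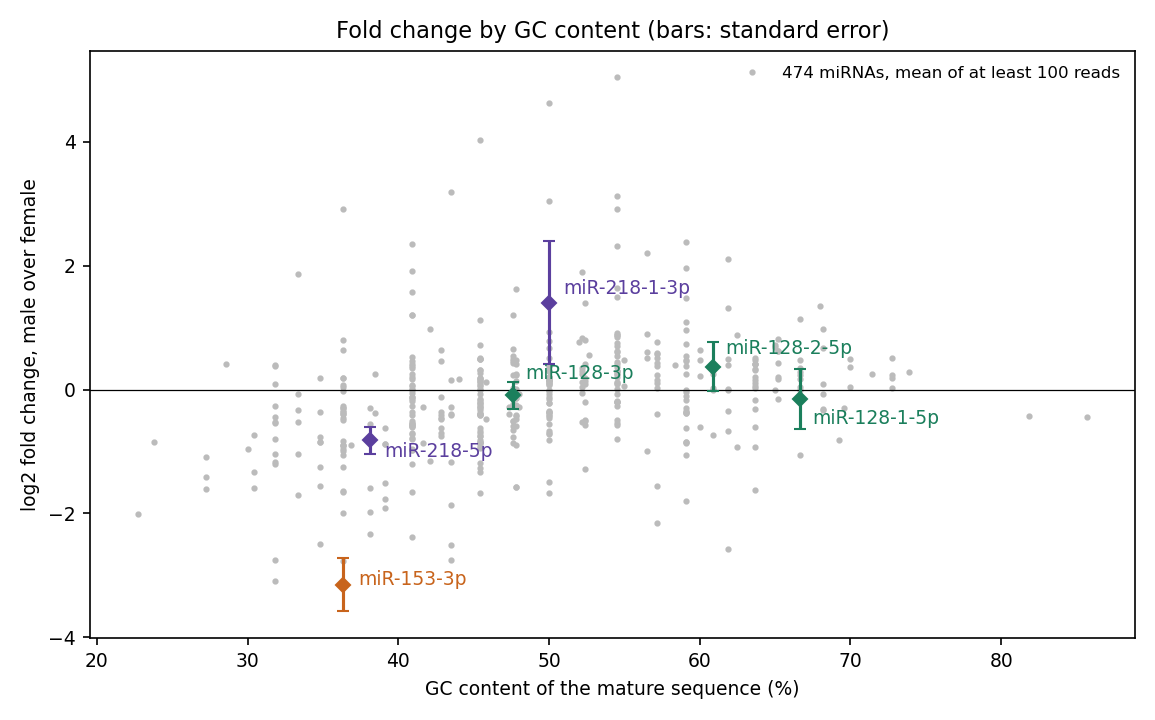
Log2 fold change, male over female, against the GC content of the mature sequence for 474 miRNAs averaging 100 reads or more (grey points), with 6 arms of the 3 families marked (diamonds, bars are standard errors of the fit). miR-218-5p at -0.82 lies within the grey points of like GC content, and miR-153-3p at -3.15 has the lowest value of all.

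Other neuronal miRNAs were read from a list of 13, all of which were tested. Both arms of miR-9 are on it. The paper describes high miR-9-5p levels in neurogenesis, so the list may not read neurons alone. Of these, 5 were female-biased and none male-biased, where the shares over all miRNAs tested were 5.27% and 3.21%. The median log2 fold change was -0.56. The 5 were miR-137-3p (log2 fold change -1.55, standard error 0.27), miR-7a-5p (-1.24, 0.26), miR-9-3p (-1.20, 0.28), miR-7b-5p (-1.03, 0.20) and miR-138-5p (-0.99, 0.31), in edgeR's fit. miR-138-5p was close to the threshold in that fit (adjusted p = 0.0492). Calls on this and the other lists are from the edgeR fit with TMM scaling only, and were not counted in other fits. miR-124-3p, which is specific to neurons, averaged 9387 ± 986 CPM (SD, n = 3) over the female libraries and 6976 ± 857 CPM (SD, n = 3) over the male ones and was not past the threshold (-0.56, 0.23). The log2 fold change had the other sign for 4 of the 13, none past the threshold, at 0.54 (standard error 0.41) for miR-212-3p, 0.42 (0.20) for miR-129-5p, 0.19 (0.36) for miR-129-2-3p and 0.16 (0.20) for miR-132-3p. These 4 have a GC content of 45.5 to 57.1%. Of the 5 female-biased ones, miR-138-5p has 56.5% and the rest 31.8 to 34.8%, a range of GC-poor miRNAs. The part of base composition in this list was not tested. The 13 summed to between 233800 and 276800 CPM in females and between 184000 and 211900 CPM in males, and none was at 0 in all libraries. Most of this sum was miR-9-5p, so it says little of the others. miR-9-5p averaged 187800 ± 10860 CPM (SD, n = 3) over the female libraries and 158800 ± 14020 CPM (SD, n = 3) over the male ones. It was not past the threshold (-0.36, 0.33). Of 22 other intronic arms with hosts expressed in brain, 20 were tested and 2 were at 0 throughout. In that list 1 was female-biased, miR-448-3p from the serotonin receptor gene Htr2c (-0.96, 0.23), and 1 was male-biased, miR-139-5p from the phosphodiesterase gene Pde2a (0.71, 0.20), with a median of 0.05 over the 20.

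miRNAs of the Hox loci, which mark hindbrain and spinal cord, were read beside miR-218 because motor neurons lie there. Of the 7 on the list, 5 were female-biased and none male-biased, where the shares over all miRNAs tested were 5.27% and 3.21%. The median log2 fold change was -1.66. They summed to 12870 (F1), 8984 (F2) and 11680 CPM (F3) in females and 1801 (M1), 2030 (M2) and 2205 CPM (M3) in males. miR-10a-5p alone averaged 5980 ± 864 CPM (SD, n = 3) over the female libraries and 958 ± 100 CPM (SD, n = 3) over the male ones. None of the 7 was at 0 in all libraries. The part of these tissues in the levels of miR-218-5p and miR-153-3p was not tested.

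The profiles over the 6 libraries were compared by the root mean square difference of log2 CPM after centring each miRNA on its own mean. Among 547 other miRNAs averaging 100 reads or more, those nearest to miR-218-5p were miR-106b-5p (0.05), miR-154-3p (0.08) and miR-369-3p (0.09), where the median distance was 0.61. Nearest to miR-128-3p were miR-30a-3p (0.06), miR-412-5p (0.08) and miR-487b-3p (0.08), with a median of 0.46. miR-153-3p had no neighbour as close. The nearest were miR-19a-3p (0.33), miR-10b-3p (0.46) and miR-10b-5p (0.63), with a median of 1.66. miR-19a-3p had the same dip in F2, at 56.5, 10.9 and 55.6 CPM in F1, F2 and F3, and lay between 6.88 and 9.01 CPM in males.

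**Figure D4:**
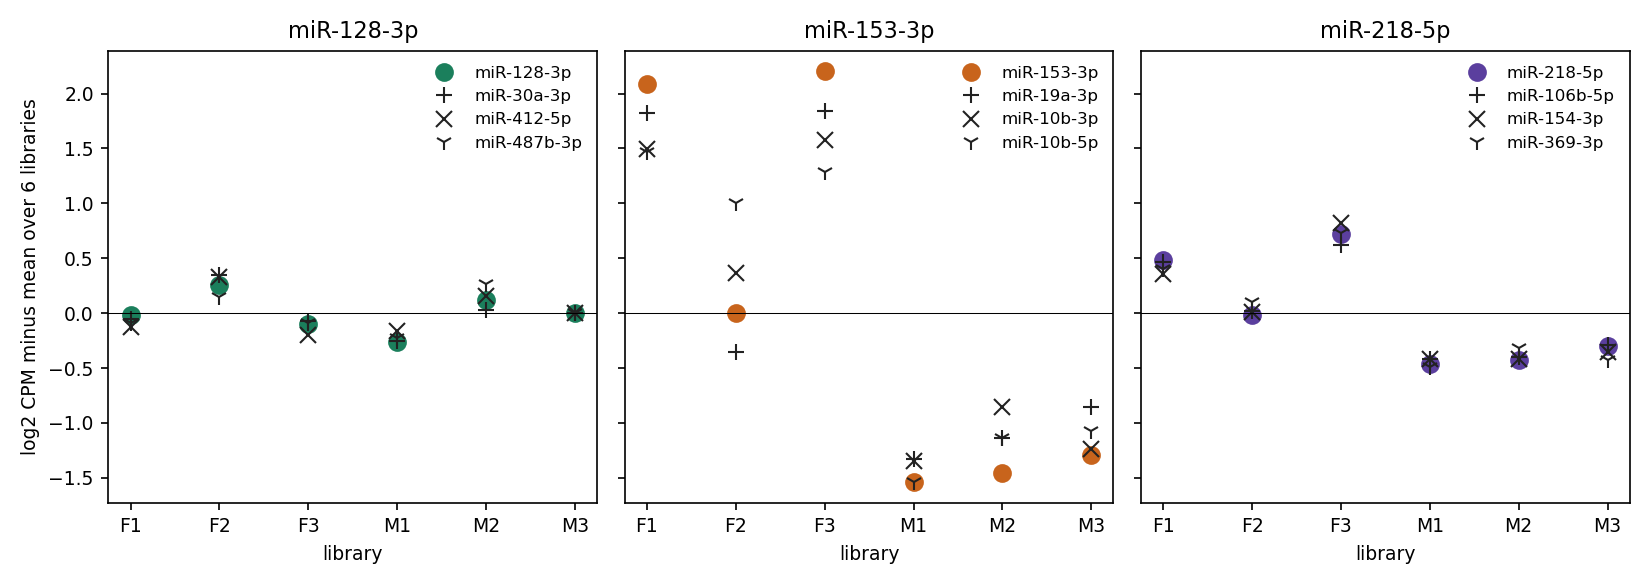
Log2 CPM of miR-128-3p, miR-153-3p and miR-218-5p in each library (filled circles), minus the mean over the 6 libraries, with the 3 miRNAs of nearest profile (black symbols). The neighbours of miR-218-5p lie within a root mean square of 0.09 of it, those of miR-153-3p only within 0.63, and F2 lies below F1 and F3 for both of these guides.

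By sequence, no mature miRNA in the table shares the seed of miR-153-3p or miR-128-3p, or a seed shifted by 1 base in the case of miR-153-3p. The seed of miR-128-3p is shared, shifted by 1 base, with miR-27a-3p and miR-27b-3p and with miR-216a-3p, and the 2 most abundant of these are shown with the seed in capitals.
miR-27b-3p: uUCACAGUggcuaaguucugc
miR-27a-3p: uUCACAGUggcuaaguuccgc

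miR-27b-3p averaged 3147 ± 492 CPM (SD, n = 3) over the female libraries and 4684 ± 187 CPM (SD, n = 3) over the male ones, below miR-128-3p in each library, and was not past the threshold in edgeR's fit (log2 fold change 0.46, standard error 0.21, adjusted p = 0.215). miR-27a-3p averaged 122 ± 24.6 CPM (SD, n = 3) over the female libraries and 93.5 ± 6.44 CPM (SD, n = 3) over the male ones (log2 fold change -0.49, standard error 0.24). miR-216a-3p lay between 5.56 and 9.90 CPM over the libraries. The seed of miR-218-5p is shared with miR-7002-3p, which had 0 reads, so that miR-218-5p was the measured miRNA with that seed.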

How the data were processed

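The authors trimmed adaptors with cutadapt 1.15, mapped reads with Bowtie 1.2.1 to miRBase v.21 sequences and mm9, and quantified known miRNAs with miRDeep2. The deposited values are raw read counts per mature miRNA, 1 file per library, without normalization. The members and lists were chosen with earlier results of these data known.

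CPM was computed on library totals of 14802675 to 59362011 reads. R 4.3.3 was used with edgeR 4.0.16 (TMM, glmQLFit and glmQLFTest for sex, Benjamini-Hochberg adjustment over 1120 miRNAs, threshold 0.05) and DESeq2 1.42.0 as an alternative. The study itself used DESeq2 with RUVr. The standard error of a log2 fold change is its size over the root of its F statistic. Profiles used log2 CPM with TMM and a prior count of 2. The GC offset is a loess curve (span 0.75) per library on the mature sequences, which 85.7% of the 553 miRNAs averaging 100 reads or more had. The alternatives for the coefficient of variation were chosen after seeing the data. Named miRNAs are the 8 members, the 3 nearest profiles per guide, seed relatives, and list members past the threshold. After their values were seen, miR-124-3p, the neuronal and red blood cell miRNAs not past the threshold, the levels of single relatives and the arms of miR-379 were added. Coordinates are from a match to mm9. The libraries are pools, so p-values measure the spread between pools, and between any 2 libraries at most 0.21% of miRNAs with over 100 reads had equal counts.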

Additional observations from a re-analysis of the deposited data

How the results depend on the processing

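Over 16 alternatives, miR-153-3p kept its direction and its call in all, with log2 fold changes from -3.58 to -2.33, and from -3.58 to -2.82 with a library left out in turn. miR-218-5p kept its direction in all 16 and its call in 9. It lost the call with library totals (-0.70), the GC offset (-0.31) and the GC offset with a replicate block (-0.31), and in 4 of 6 fits without a library, over which it ranged from -1.0 to -0.65. The number of arms past the threshold was 1 in these 7 fits (1 to 2 over the fits without a library), 2 without female library 2, and 3 with DESeq2 and 1 RUVr factor, where miR-218-1-3p had 1.53 and a call. Without a library, miR-218-1-3p lay between 0.97 and 1.75. miR-128-3p, at -0.09, had 0.03 with library totals and between -0.18 and 0.02 without a library. miR-128-1-5p, at -0.15, had 0.01 with DESeq2 and 1 RUVr factor and between -0.28 and 0.23 without a library. The upper ends, 0.02 and 0.23, were both without female library 2. miR-128-2-5p, at 0.37, had -0.001 with the GC offset and -0.03 with the GC offset and a block. The count over all miRNAs, 95, was 228 with edgeR and 1 RUVr factor (119 male-biased), 257 with DESeq2 and 1 RUVr factor (152 male-biased), and between 30 (without male library 1) and 203 (without female library 2), with 60 without female library 3. Library totals moved the median of all miRNAs from -0.02 to 0.11, and relative to it miR-218-5p was at -0.81 against -0.80. The male minus female difference in the R3hdm1 share of miR-128 passenger reads was between -9.9 and -1.6 percentage points without a library. In the miR-218 log2 arm ratio it was between -2.72 and -1.96. Deviations of same-numbered libraries from their group means had correlations of -0.0801, 0.0289 and 0.158. With 3 libraries per sex these cannot show whether the replicate numbers pair the libraries. A replicate block gave 92 calls and -0.79 for miR-218-5p. The causes were not tested. No fold change is given for miR-153-5p, which had 0 reads in 3 libraries, the deepest among them, or for miR-218-2-3p, which had 0 reads in all.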
